A study of Arabidopsis thaliana with 25 samples.

Results

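The roots compared here came from Arabidopsis thaliana seedlings (Col-0, 4 days old) that carried the transgene pRPS5A::PEAR2-GR and had been given dexamethasone (DEX) together with cycloheximide (CHX), or DEX without CHX, both for 2 h. The comparison rests on 6 of the 25 arrays of the series, chosen by their titles: 3 from the PEAR2 line with DEX+CHX and 3 from the PEAR2 line with DEX. Both groups were run in arraying batch A451. The other 19 arrays served to estimate the spread and for side-by-side values: DEX+CHX for 2 h (4 arrays), DEX for 2 h (3), DMSO+CHX for 2 h (3) and DMSO for 1 h (3) in the pRPS5A::PEAR1-GR line, and DMSO+CHX for 2 h (3) and DMSO for 1 h (3) in the PEAR2 line. All plants carried a GR fusion driven by the RPS5A promoter, which is most active in dividing cells, and no line without a fusion was measured. DMSO+CHX was run alone in batch A461, and DMSO was sampled at 1 h, so the effect of CHX without DEX is given beside the main result with no test between them. The labels name the tissue as root in one field and as root tips in another, and they do not say whether replicates were separate cultures, so the p-values measure the spread between these arrays, which may be technical.

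PEAR2 (AT5G02460) is a transcription factor of the DOF family, and the GR part of the fusion is the hormone-binding domain of the glucocorticoid receptor, which holds the fused protein in the cytoplasm until DEX is added. CHX stops the ribosomes of the cytosol from elongating, so that these make no new protein while transcription goes on. Plant genes called early or primary response genes, such as many auxin- and defence-related genes, are known for transcripts that are short-lived and accumulate without new protein synthesis. In a bulk root sample, fewer cells of a type and less RNA per cell cannot be told apart.

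The values are the authors' RMA log2 intensities, so a change is a difference of log2 values, DEX+CHX minus DEX, given with its standard error. A row was called when its limma p, adjusted for the 17504 gene-naming rows, was under 0.05, and a change of 1 stands for 2-fold. Of these rows, 3307 (18.9%) were called higher with CHX and 4604 (26.3%) lower, which together make 7911 (45.2%). Of the same 17504 rows, 1857 (10.6%) were called and rose by at least 1, and 1088 (6.22%) were called and fell by at least 1. Rises were the larger changes: 921 rows rose and 77 fell by at least 2, 272 rose and 7 fell by at least 4, and 66 rose and 0 fell by at least 6. The median change was -0.12. When the arrays were quantile-normalized once more the split turned to 4656 higher and 3646 lower (56.1% of calls higher, against 41.8%) with a median of 0.12, so the direction of changes of about this size rests on the scaling. Changes and calls are given against 0, and the low class medians also against the median of all rows. The 3 arrays of each group did not overlap for 8993 rows (51.4%). Arrays correlated at 0.991 to 0.992 within DEX+CHX and at 0.988 to 0.990 within DEX, against 0.899 to 0.916 between these groups.

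**Figure D1:**
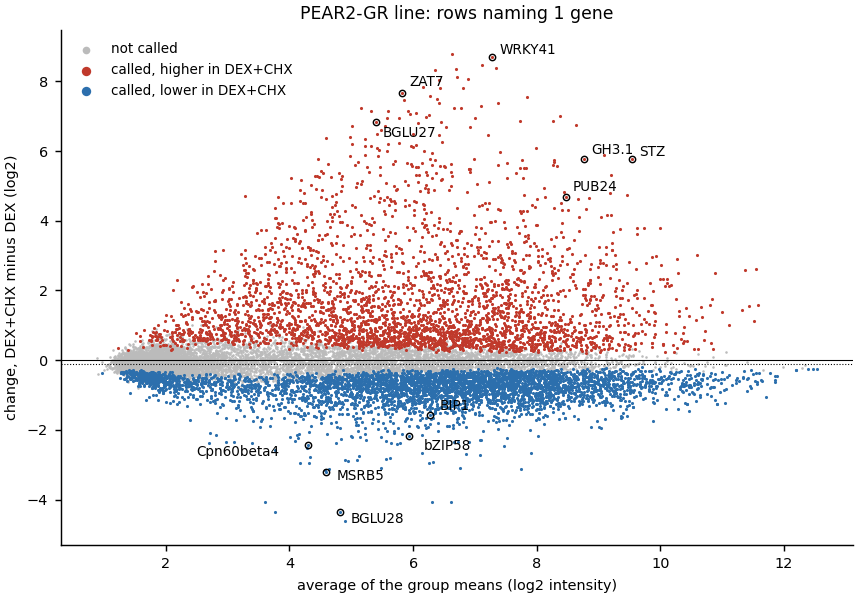
Change (DEX+CHX minus DEX, log2) against the average of both group means (log2 intensity) for each row that names 1 gene, PEAR2-GR line, 3 arrays a group. Red points were called higher with CHX, blue points lower and grey points were not called; the dotted line is the median of -0.12. Rises reach 8.79 and falls reach -4.62.

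Functional classes were formed from gene symbols and names. Of 16552 genes with a row, 1764 have a symbol, and 952 of the genes fall into 55 classes of at least 5 genes. Genes with a symbol were called higher in 18.1% and lower in 33.3% of cases, and by at least 1 in 10.5% and 6.24%, with a median change of -0.17. With 1 row for each of the 16552 genes the shares were 19.1% higher and 25.7% lower, and 10.7% and 6.02% by at least 1. The counts of a class are read against these shares. The plot of changes by class shows calmodulin-like proteins, U-box ubiquitin ligases and WRKY factors at the high end, and tubulins, chaperones and RNA polymerase subunits at the low end. In between, most classes held members that rose and members that fell.

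**Figure D2:**
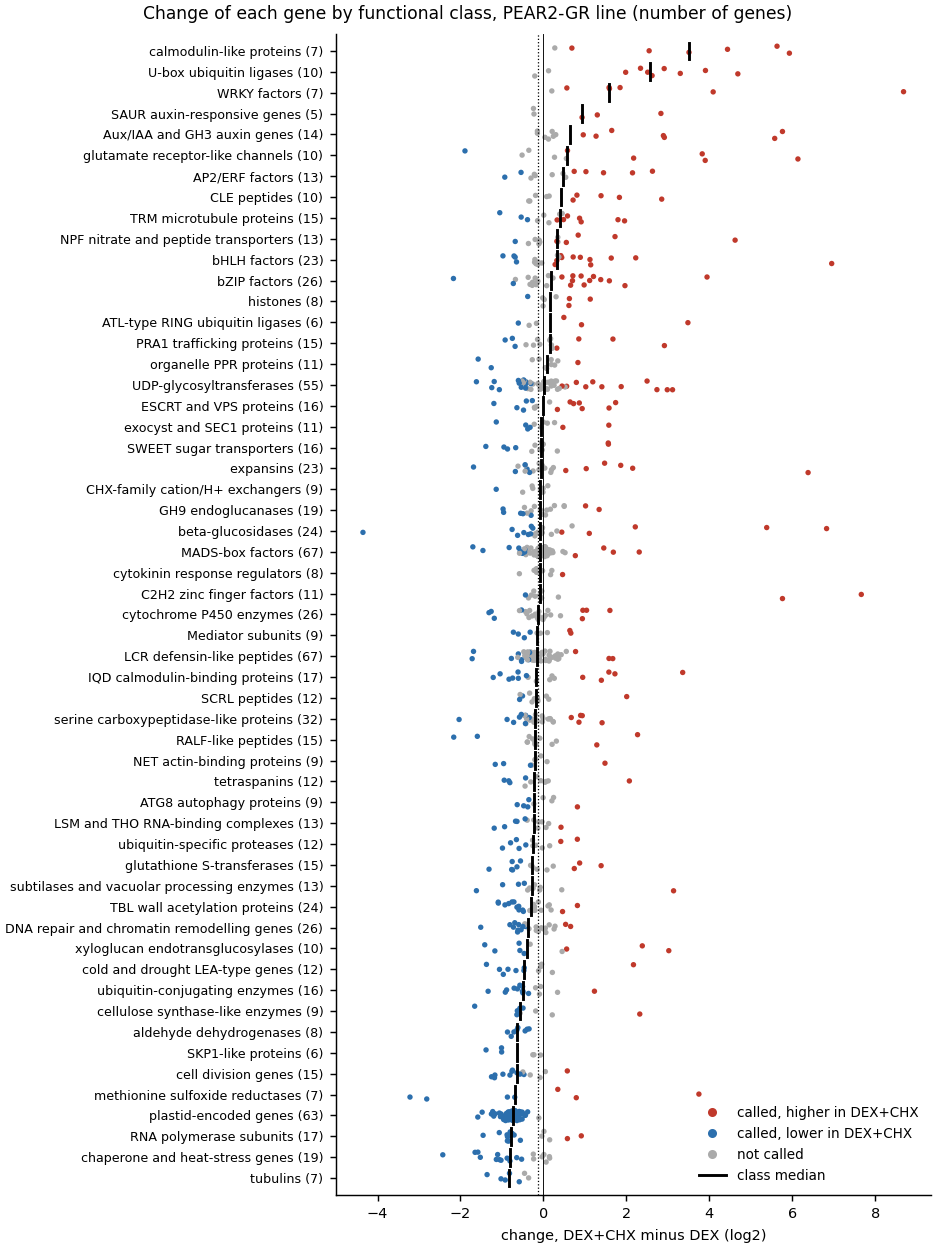
Change (DEX+CHX minus DEX, log2) of each gene in 55 functional classes of the PEAR2-GR line, ordered by class median (black bars), with the number of genes in brackets. Red points were called higher, blue points lower and grey points were not called; the dotted line is the median of all rows. Class medians run from 3.51 for calmodulin-like proteins to -0.82 for tubulins.

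Calmodulin-like proteins, which bind calcium and relay its signals, had the highest class median: 6 of 7 genes rose, 5 of them by at least 1, and the class median was 3.51. CML37, a calcium sensor known from wounding responses, read 9.19, 9.36 and 9.25 on the DEX+CHX arrays, against 3.08, 3.42 and 3.5 on the DEX arrays. Its change was 5.93 ± 0.26 (limma adjusted p = 9.88e-15), or 61-fold. CML38, CML23 and CML41 rose by 5.63 ± 0.19, 4.44 ± 0.19 and 3.51 ± 0.19. AT1G76640, named CML39 in the reference table, rose by 2.55 ± 0.25, and CML42 by 0.69 ± 0.17. For these 6 genes each DEX+CHX array lay above each DEX array. CML43 changed by 0.28 ± 0.23 (limma adjusted p = 0.366) and its groups overlapped. The class median was 6.78, 7.10 and 7.19 on the DEX+CHX arrays, against 3.08, 3.15 and 3.44 on the DEX arrays.

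U-box proteins are ubiquitin ligases, which mark other proteins for removal. Of 10 genes, 8 rose, all by at least 1, and the class median was 2.57. PUB24 read 10.69, 10.85 and 10.90 with DEX+CHX, against 5.74, 6.04 and 6.59 with DEX, a change of 4.69 ± 0.19 (limma adjusted p = 3.81e-15). PUB22, PUB23 and PUB24 are known together as brakes on the response to bacterial patterns, and PUB22 and PUB23 rose by 2.34 ± 0.11 and 2.62 ± 0.09. PUB25 and PUB26, known to direct the kinase BIK1 to degradation, rose by 2.91 ± 0.13 and 3.30 ± 0.14. BIK1 itself, a receptor-associated kinase of immune signalling, rose by 1.85 ± 0.14. PUB54, PUB19 and PUB39 rose by 3.91 ± 0.23, 2.52 ± 0.18 and 1.98 ± 0.21. PUB15 (-0.21 ± 0.13) and PUB43 (0.12 ± 0.15) were not called.

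WRKY factors bind the W-box of defence gene promoters, and 6 of 7 rose, with a class median of 1.59. WRKY41 had the second largest rise of any row with 1 gene: 11.40, 11.69 and 11.77 with DEX+CHX, against 2.88, 3.31 and 2.62 with DEX, which is 8.69 ± 0.17 or 412-fold (limma adjusted p = 4.47e-20). WRKY22 and WRKY29, which act in flagellin signalling, rose by 4.09 ± 0.14 and 1.58 ± 0.13. WRKY42 and WRKY6, both known from phosphate supply, rose by 1.85 ± 0.25 and 1.59 ± 0.12, and WRKY47 by 0.57 ± 0.11. WRKY20 changed by 0.20 ± 0.10 and was not called (limma adjusted p = 0.103). The groups did not overlap in any of the 7, as in 51.4% of all rows.

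**Figure D3:**
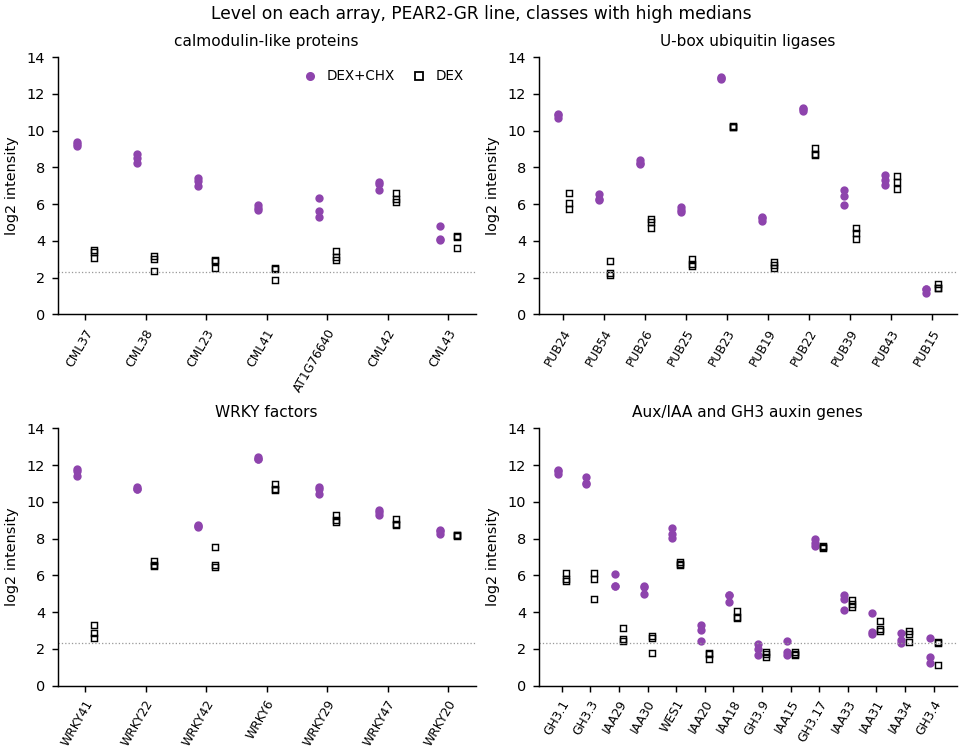
Level (log2 intensity) of each gene on each array of the PEAR2-GR line in 4 classes with high medians, genes ordered by change. Filled circles are the 3 DEX+CHX arrays and open squares the 3 DEX arrays; the dotted line at 2.3 marks the low range in which a value bounds the change. CML37, PUB24, WRKY41 and GH3.1 show DEX+CHX arrays far above DEX arrays, whereas CML43, PUB43 and IAA33 overlap.

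Auxin-responsive genes formed a further group of rises. GH3 enzymes join auxin to amino acids and Aux/IAA proteins repress auxin response, and 7 of 14 genes of these families rose while 0 fell, with a class median of 0.63. GH3.1 read 11.67, 11.52 and 11.73 with DEX+CHX against 6.12, 5.72 and 5.79 with DEX (5.76 ± 0.12, limma adjusted p = 9.36e-20). GH3.3 rose by 5.58 ± 0.29 and WES1, also known as GH3.5, by 1.65 ± 0.19. Among the repressors, IAA29, IAA30 and IAA18 rose by 2.92 ± 0.22, 2.89 ± 0.28 and 0.96 ± 0.17. IAA20 rose by 1.27 ± 0.34 from a DEX mean at or under 2.3, the low range where the array value hardly falls further, so that this change is a lower bound. Of the 7 genes not called, GH3.17 read 7.95, 7.58 and 7.74 with DEX+CHX against 7.49, 7.57 and 7.57 with DEX, and 3 were in the low range in both groups.

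SAUR genes, short auxin-induced transcripts, showed 3 rises among 5: SAUR58 (AT1G43040) by 2.83 ± 0.19, SAUR4 (AT4G34800) by 1.3 ± 0.18 and SAUR53 (AT1G19840) by 0.93 ± 0.14. The other two were in the low range in both groups. LBD16 and LBD29, regulators of lateral root initiation that act downstream of auxin, rose by 3.25 ± 0.18 and 4.50 ± 0.21. LBD29 read 9.36, 9.71 and 9.37 with DEX+CHX, against 4.77, 5.09 and 5.06 with DEX. PUCHI, an AP2/ERF factor of lateral root formation, rose by 2.63 ± 0.27. These genes moved the same way in the PEAR1 line, where GH3.1, LBD29 and PUCHI changed by 5.59, 4.94 and 2.07.

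The C2H2, AP2/ERF, MADS-box, bHLH and bZIP families each held rises and falls. Among C2H2 zinc finger genes 2 of 11 rose (18.2%, beside 19.1% over all genes) and 1 fell. The falls numbered 0 without PEAR2 DEX+CHX replicate 1 or PEAR2 DEX replicate 2 or 3. The risen genes belong to the ZAT group of stress repressors. STZ (ZAT10) read 12.40, 12.47 and 12.39 with DEX+CHX against 6.88, 6.39 and 6.70 with DEX (5.76 ± 0.20), and ZAT7 rose by at least 7.67 from the low range. AP2/ERF factors counted 5 rises and 2 falls among 13, with DREB2C, a heat- and drought-response factor, at 2.15 ± 0.24 and ORA47, a jasmonate-response factor, at 1.45 ± 0.28. When only the 6 arrays of the comparison entered the fit, these counts were 4 and 0. MADS-box factors counted 4 rises and 8 falls among 67, of which 49 were in the low range in both groups. Under the repeated quantile normalization they counted 10 rises and 5 falls, so the balance rests on the scaling. Likewise 52 of 67 LCR genes, which encode small secreted peptides, were in the low range in both groups.

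Of 23 bHLH factors 11 rose (47.8%) and 4 fell (17.4%), beside 19.1% and 25.7% over all genes, with a class median of 0.32. But the number of rises was 6 to 10 when 1 array was left out, and it was 6 without PEAR2 DEX replicate 1. BHLH92 rose by at least 6.95 from the low range. BHLH101 and PYE, both regulators of iron deficiency responses, rose by 1.64 ± 0.29 and 1.14 ± 0.12, whereas bHLH104 and bHLH115, which act in the same iron network, fell by 0.65 ± 0.16 and 0.71 ± 0.16. LHW, which acts in vascular cell divisions of the root, read 7.60, 6.89 and 7.21 with DEX+CHX against 8.01, 8.00 and 7.74 with DEX, a fall of 0.68 ± 0.13 in the fit.

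Among 26 bZIP factors 12 rose (46%) and 2 fell (7.7%), beside 19.1% and 25.7% over all genes, and 4 fell without PEAR2 DEX replicate 1. BZIP60, the splicing-activated factor of the unfolded protein response, read 10.16, 10.51 and 10.46 with DEX+CHX against 6.55, 6.29 and 6.45 with DEX (3.95 ± 0.11, limma adjusted p = 9.28e-18). BZIP28 and BZIP17, the membrane-bound factors of the same response, rose by 0.70 ± 0.11 and 0.45 ± 0.13. BZIP24 and EEL rose by 1.97 ± 0.27 and 1.59 ± 0.18, and bZIP58 fell by 2.17 ± 0.24.

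Chaperones moved the other way. Of 19 chaperone and heat-stress genes 0 rose and 12 fell, 8 of them by at least 1, with a class median of -0.81, which is 0.68 below the median of all rows. BIP1, the Hsp70 of the endoplasmic reticulum, read 5.36, 5.32 and 5.78 with DEX+CHX against 7.03, 6.97 and 7.18 with DEX, and fell by 1.58 ± 0.27 (limma adjusted p = 3.87e-05). Its row may also detect near-identical family members. ATERDJ2A and ATERDJ3B, J-domain partners of BiP, fell by 0.87 ± 0.10 and 0.81 ± 0.12. Among genes of the endoplasmic reticulum, the regulator BZIP60 rose and these 3 chaperones fell.

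The plastid chaperonin subunits Cpn60beta2, Cpn60beta3 and Cpn60beta4 fell by 1.65 ± 0.18, 1.1 ± 0.11 and 2.43 ± 0.29. Cpn60beta4 has a second row of lower mean, which changed by -0.37 and was not called (limma adjusted p = 0.212), so its rows disagree. In the cytosol, Hop1, Hop2 and Hop3, which hand clients between Hsp70 and Hsp90, fell by 0.64 ± 0.11, 0.53 ± 0.13 and 1.52 ± 0.20. Fes1A, an exchange factor of Hsp70, fell by 1.14 ± 0.14, Hsp70-2 by 1.06 ± 0.18 and BOB1 by 1.02 ± 0.12. The class median was 5.36, 5.29 and 5.60 on the DEX+CHX arrays against 6.22, 5.81 and 5.82 on the DEX arrays, with no overlap.

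Tubulins, the subunits of microtubules, had a class median of -0.82, or 0.70 below the median of all rows, with 5 of 7 genes lower and 0 higher. Without PEAR2 DEX+CHX replicate 3 the median was -0.71, above the -0.86 of the chaperones, so the lowest classes have no set order. TUB7 read 5.99, 5.83 and 5.93 with DEX+CHX against 7.5, 7.17 and 7.16 with DEX (fell by 1.36 ± 0.13, limma adjusted p = 5.82e-09). TUB1, TUB5, TUB6 and TUB9 fell by 1.02 ± 0.19, 0.92 ± 0.21, 0.82 ± 0.12 and 0.58 ± 0.10. TUBG1 changed by -0.36 ± 0.15 (limma adjusted p = 0.0622), and TUA6 was in the low range in both groups. Tubulin rows may share probes between near-identical genes. Without DEX the class median was -1.64 (DMSO+CHX minus DMSO).

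Of 17 subunits of RNA polymerases 12 fell and 2 rose, with a class median of -0.78, or 0.66 below the median of all rows. NRPA1, the largest subunit of RNA polymerase I, which transcribes ribosomal RNA, read 6.71, 6.72 and 6.98 with DEX+CHX against 8.39, 8.29 and 8.09 with DEX (fell by 1.45 ± 0.11, limma adjusted p = 1.12e-10). NRPA2, its partner, fell by 0.87 ± 0.13, and the RNA polymerase III subunits NRPC1 and NRPC2 by 0.84 ± 0.12 and 0.75 ± 0.14. Rises were seen in NRPD2B (0.91 ± 0.26) and NRPD7 (0.58 ± 0.23), subunits of the plant-specific polymerases of small-RNA-directed silencing. The call of NRPD7 was lost in 8 of the alternatives tried, among them the fit of the 6 arrays alone. Without DEX the class median was -0.24.

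Cell division genes counted 10 falls and 1 rise among 15, with a class median of -0.64, or 0.52 below the median of all rows. The spindle checkpoint genes BUB3.1, BUB3.2 and BUBR1 fell by 0.98 ± 0.14, 1.17 ± 0.14 and 0.76 ± 0.13. KINESIN-12B, a motor of the phragmoplast that builds the new wall, fell by 1.18 ± 0.21 and TSO1, needed for ordered divisions in meristems, by 1.25 ± 0.15. The Aurora kinases AUR1 and AUR2 fell by 0.47 ± 0.14 and 0.75 ± 0.22, and both calls were lost under an alternative: AUR1 without PEAR2 DEX+CHX replicate 2 and in the fit of the 6 arrays alone, and AUR2 without PEAR2 DEX replicate 2. SDS, a cyclin known from meiosis, rose by 0.58 ± 0.14. TOPII, a DNA topoisomerase, fell by 1.3 ± 0.15, and RECQ4A, a DNA helicase, by 1.51 ± 0.19. Histones counted 3 rises and 1 fall among 8, with 0 falls without PEAR2 DEX+CHX replicate 2 or PEAR2 DEX replicate 1 or 2, and HTB2, an H2B gene, rose by 1.13 ± 0.18.

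**Figure D4:**
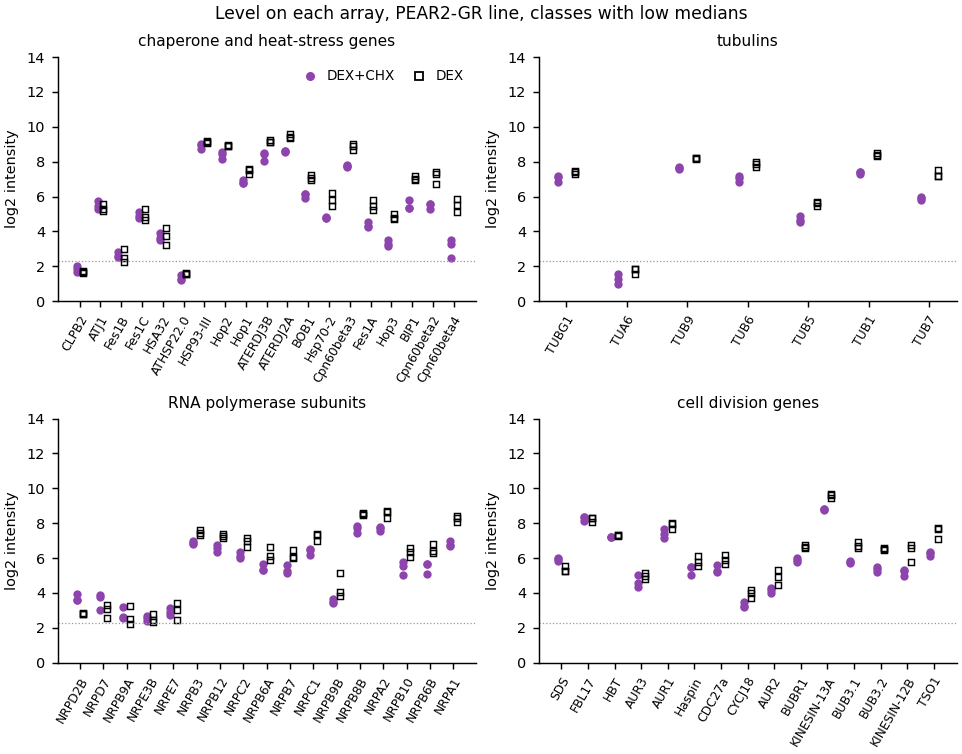
Level (log2 intensity) of each gene on each array of the PEAR2-GR line in 4 classes with low medians, genes ordered by change. Filled circles are the 3 DEX+CHX arrays and open squares the 3 DEX arrays; the dotted line at 2.3 marks the low range. BIP1, TUB7, NRPA1 and TSO1 lie lower on every DEX+CHX array, and NRPD2B and SDS lie higher.

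Genes encoded in the plastid genome fell almost without exception: 62 of 63 were called lower and 0 higher, with a class median of -0.73, or 0.61 below the median of all rows, and 9 fell by at least 1. Under the repeated quantile normalization 59 were called lower. The class median was at most 9.40 on the DEX+CHX arrays, against at most 10.08 on the DEX arrays, and the groups did not overlap. By role, the median was -0.77 for 18 photosystem genes, -0.79 for 10 NDH complex genes, -0.67 for 13 ribosomal protein genes, -0.95 for 4 RNA polymerase genes, -0.59 for 4 ATP synthase genes and -0.61 for 6 genes of the cytochrome complex. The largest falls were those of rps16 (1.58 ± 0.16) and ndhC (1.48 ± 0.12). matK, a plastid intron maturase, read 9.91, 9.95 and 10.10 with DEX+CHX against 11.17, 11.18 and 11.10 with DEX. psbT was not called, with 4.46, 5.59 and 5.31 on the DEX+CHX arrays and 5.59, 4.96 and 5.14 on the DEX arrays. The plastid genes share transcription units and are not independent of each other.

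Nuclear genes of green tissue gave signal in these roots as well. RCA, the activase of Rubisco, read 5.94, 6.58 and 6.17 with DEX+CHX against 6.58, 6.64 and 6.73 with DEX, a fall of 0.42 ± 0.16 that missed the threshold in the fit of the 6 arrays and in 8 other alternatives. LHB1B2, a light-harvesting protein, fell by 1.32 ± 0.15. Of the 7 listed markers of green tissue only RCA had a named row, and its part in the plastid result was not tested.

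Among ubiquitin-conjugating enzymes 11 of 16 fell and 1 rose, with a class median of -0.50, or 0.38 below the median of all rows. UBC28 read 6.15, 6.16 and 6.14 with DEX+CHX against 7.60, 7.43 and 7.41 with DEX and fell by 1.33 ± 0.12, whereas UBC33 rose by 1.23 ± 0.14. Among ATL-type RING ligases 3 of 6 rose and 1 fell, with ATL5 at 3.48 ± 0.17. The rises numbered 2 in the fit of the 6 arrays alone and without any 1 array other than PEAR2 DEX replicate 3. The fall was not called without PEAR2 DEX+CHX replicate 3 or PEAR2 DEX replicate 3. RPN12b, a subunit of the proteasome lid, rose by 4.27 ± 0.28, and RING1, a membrane ligase of defence responses, by at least 5.42. Of 6 SKP1-like proteins, adaptors of SCF ligases, 3 fell and 0 rose.

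Of 16 ESCRT and VPS genes, which sort membrane proteins for degradation, 7 rose and 5 fell. The falls numbered 3 without PEAR2 DEX+CHX replicate 1 or 2 and under the repeated quantile normalization. VPS60.1 rose by 1.74 ± 0.16 and VPS2.1 by 1.58 ± 0.11, and VPS2.1 read 10.07, 10.22 and 10.13 with DEX+CHX against 8.37, 8.54 and 8.77 with DEX. SEC1B, a regulator of vesicle fusion, rose by 1.58 ± 0.13 while the exocyst subunit SEC6 fell by 1.14 ± 0.10. PRA1.B5 and PRA1.G2 rose by 2.92 ± 0.16 and 1.68 ± 0.17, among 4 rises and 3 falls in 15 PRA1 genes. The rises and falls were 26.7% and 20% of the class, beside 19.1% and 25.7% over all genes. For genes with a symbol these shares were 18.1% and 33.3%. TET8, a tetraspanin known from secreted vesicles, rose by 2.07 ± 0.12. Of 12 tetraspanins 4 fell (33.3%), the same share as among genes with a symbol (33.3%).

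Receptor and peptide genes gave rises and falls of unlike size. Of 10 glutamate receptor-like channels, which carry calcium in wound signals, 5 rose and 1 fell, and 2 fell without PEAR2 DEX replicate 2. GLR2.8 rose by at least 6.14 and ATGLR1.2 by 3.90 ± 0.26. GLR2.9 read 6.06, 7.07 and 7.63 with DEX+CHX against 3.12, 3.16 and 2.99 with DEX (3.83 ± 0.38), and GLR3.5 fell by 1.89 ± 0.15. EFR, the receptor of a bacterial elongation factor, rose by 1.94 ± 0.23, and the cell wall receptor kinases FER and THE1 by 0.68 ± 0.12 and 0.63 ± 0.13. Of 15 RALF-like peptides, ligands of such receptors, 2 rose and 2 fell (13.3% each), beside 18.1% and 33.3% among genes with a symbol. RALFL33 rose by 2.27 ± 0.11 and RALFL32 fell by 2.16 ± 0.17. RALFL34, a ligand of THE1, fell by 1.59 ± 0.22.

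CLE peptides, ligands that set cell fate in meristems and vascular tissue, counted 5 rises and 0 falls among 10, with the other 5 in the low range in both groups. The rises numbered 4 without PEAR2 DEX+CHX replicate 1 or 2 or PEAR2 DEX replicate 2. Without PEAR2 DEX replicate 1 or 2 the class counted 1 fall. CLE41 and CLE44, which are made in phloem and act on the cambium, rose by 2.85 ± 0.19 and 1.39 ± 0.21. CLE41 read 6.51, 6.81 and 6.58 with DEX+CHX against 3.54, 3.47 and 4.34 with DEX. The listed phloem markers with a row moved both ways. CLE25, CLE26 and CLE45 rose by 1.83 ± 0.17, 0.81 ± 0.24 and 0.72 ± 0.23, whereas OPS, a phloem polarity protein, fell by 1.04 ± 0.22 and the sucrose exporter SWEET11 by 0.95 ± 0.23. CLE26 lost its call without PEAR2 DEX replicate 2 (0.64), and CLE45 without PEAR2 DEX+CHX replicate 1 (0.63) or replicate 2 (0.65). The root hair gene EXPA7 read 9.32, 9.43 and 9.87 with DEX+CHX and 9.64, 9.66 and 9.62 with DEX, and was not called (limma adjusted p = 0.638). Of 53 listed cell type markers 7 had a named row, so cell types other than these could not be followed.

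Of 10 xyloglucan endotransglucosylases, which cut and rejoin wall polymers, 3 rose and 5 fell. XTH18 read 9.21, 9.47 and 9.48 with DEX+CHX against 6.81, 5.97 and 6.32 with DEX (3.02 ± 0.18), and XTH19 rose by 2.38 ± 0.14, while XTH21 fell by 1.41 ± 0.12. CSLC04, a synthase of the xyloglucan backbone, rose by 2.32 ± 0.09, and its relative CSLC5 fell by 1.66 ± 0.21. Among 23 expansins, which loosen walls, 6 rose (26.1%) and 5 fell (21.7%), close to the shares over all genes. Of genes with a symbol 18.1% rose and 33.3% fell. The expansin falls numbered 2 without PEAR2 DEX+CHX replicate 2 or 3, and 3 without PEAR2 DEX replicate 2 or 3 or under the repeated quantile normalization. EXLA3 rose by at least 6.38, EXLA1 by 2.15 ± 0.17 and EXPA4 by 1.86 ± 0.14, and EXPB3 fell by 1.69 ± 0.15. TBL proteins, many of which acetylate wall polymers, counted 11 falls and 2 rises among 24. HCT, an enzyme of lignin precursors, fell by 1.38 ± 0.11, and CCR2 (AT1G80820), a cinnamoyl-CoA reductase of the same pathway, rose by 3.44 ± 0.17.

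Metabolic enzymes included the class with all members called lower. All 8 aldehyde dehydrogenases fell, by 0.34 to 0.87, with a class median of 8.05, 7.97 and 8.05 on the DEX+CHX arrays against 8.55, 8.68 and 8.48 on the DEX arrays. Their median change was -0.63, or 0.50 below the median of all rows. ALDH7B4 fell by 0.87 ± 0.09. The class counted 5 falls under the repeated quantile normalization and 6 in the fit of the 6 arrays alone. Methionine sulfoxide reductases, which repair oxidised methionine, all changed, 3 up and 4 down: MSRB8 rose by 3.75 ± 0.29, and MSRB5 and MSRB4 fell by 3.22 ± 0.22 and 2.81 ± 0.25. Of 55 UDP-glycosyltransferases 11 rose (20%) and 12 fell (21.8%), beside 19.1% and 25.7% over all genes. The shares among genes with a symbol were 18.1% and 33.3%. The counts of the class turned to 20 and 7 under the repeated quantile normalization. UGT71B6, which glucosylates abscisic acid, rose by 3.11 ± 0.25, and UGT76B1, which acts on defence metabolites, fell by 1.61 ± 0.10. DLAH, an acylhydrolase, rose by 5.89 ± 0.29, and OPCL1, an enzyme of jasmonate synthesis, by 3.68 ± 0.13.

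Beta-glucosidases spanned the widest range of the enzyme classes. BGLU27 rose by at least 6.83 and BGLU31 by 5.38 ± 0.30, whereas BGLU28 fell by 4.35 ± 0.29. NAI1, the bHLH regulator of ER bodies in Arabidopsis, read 5.29, 5.24 and 5.64 with DEX+CHX against 6.10, 6.51 and 6.49 with DEX, and fell by 0.98 ± 0.14. BGLU21 and BGLU22, glucosidases of these bodies, fell by 0.62 ± 0.14 and 0.75 ± 0.13. PYK10, a further glucosidase of ER bodies, fell by 0.26 ± 0.09, but its sign turned under the repeated quantile normalization and its call was lost in the fit of the 6 arrays alone. JAL22, a jacalin-type lectin, fell by 1.84 ± 0.21. The rows of these glucosidases may share probes.

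Of 13 genes of the NPF transporter family 5 rose and 1 fell. NPF4.3 (AT1G59740) read 10.34, 10.57 and 10.02 with DEX+CHX against 5.51, 5.69 and 5.85 with DEX (4.62 ± 0.19). GTR1, a glucosinolate importer, rose by 1.73 ± 0.11 and its relative GTR2 by 0.55 ± 0.16. NRT2.5, a high-affinity nitrate transporter, rose by 3.48 ± 0.21. Among 16 SWEET sugar transporters 2 rose (12.5%) and 4 fell (25%), beside 19.1% and 25.7% over all genes. Genes with a symbol had shares of 18.1% and 33.3%. SWEET14 and SWEET13 were higher by 1.57 ± 0.28 and 1.56 ± 0.18, and SWEET17 was lower by 1.39 ± 0.22.

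AT5G57510, known here by its locus only, had the largest rise of the rows with 1 gene. It read 10.99 to 11.09 with DEX+CHX against 2.20, 2.05 and 2.44 with DEX, a rise of at least 8.79. AT1G34050, AT1G07135, AT5G11140 and AT3G29000 rose by 8.45, 8.37, 8.36 and at least 8.32. The largest fall was that of AT4G03292, with 2.57, 2.68 and 2.5 with DEX+CHX against 7.41, 7.23 and 6.98 with DEX (fell by 4.62 ± 0.26). AT2G41810 and LpxC2, an enzyme named for lipid A synthesis, fell by 4.08 ± 0.19 and 3.12 ± 0.16. Over all named rows, 197 of the 1857 rises of at least 1 started from a DEX mean in the low range, and 46 of the 1088 falls ended in it.

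The same comparison in the PEAR1 line called 3512 rows higher (20.1%) and 4545 lower (26%). Of the rows that rose in the PEAR2 line 88.2% also rose in the PEAR1 line (83.1% of its rises), and of those that fell 77.9% also fell (78.9% of its falls), while 9 rows were called in opposite directions. The changes of both lines correlated at r = 0.957 across rows, which are not independent replicates. The lines differed, by limma's test of the difference, in 7 rows (0.04%), all with a lower change in the PEAR2 line, and in 0 rows with a higher one. At an unadjusted p under 0.05 the counts were 882 lower and 590 higher. The count ranged from 2 to 18 when 1 array was left out: it was 2 without PEAR2 DEX+CHX replicate 1 or without PEAR1 DEX replicate 1, and 18 without PEAR2 DEX replicate 1. It was 15 without PEAR1 DEX+CHX replicate 4, 12 without PEAR1 DEX replicate 2 and 4 without PEAR1 DEX+CHX replicate 1 or 3. No member of the 55 classes was among the 7.

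The row of PEAR2 itself was one of them. In the PEAR2 line it read 12.06, 12.10 and 12.10 with DEX+CHX against 10.98, 11.05 and 10.84 with DEX, a rise of 1.14 ± 0.12 (limma adjusted p = 2.95e-08). The PEAR1 line, which carries no PEAR2 transgene, averaged 8.78 ± 0.10 with DEX+CHX (SD, n = 4) and 6.12 ± 0.21 with DEX (SD, n = 3), a rise of 2.66. The log2 changes of the lines differed by -1.53 ± 0.16 (limma adjusted p = 5.44e-05), with a higher DEX level in the PEAR2 line. Each log2 change is relative to its own DEX level, so this difference does not compare the amount of transcript added in the lines. The row does not separate the transcript of the transgene from that of the native gene. Without DEX it read 12.03 ± 0.06 in PEAR2 DMSO+CHX and 10.74 ± 0.01 in PEAR2 DMSO (SD, n = 3 each).

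Among the other differences AT2G05510 was near the floor of the array in all groups but one: it averaged 1.80 ± 0.14 with DEX+CHX and 4.13 ± 0.35 with DEX in the PEAR2 line (SD, n = 3 each), against 1.94 ± 0.31 (n = 4) and 1.84 ± 0.12 (n = 3) in the PEAR1 line. The difference was -2.43 ± 0.31 (limma adjusted p = 0.00106). AT5G37990 averaged 3.0 ± 0.27 with DEX+CHX and 6.14 ± 0.32 with DEX in the PEAR2 line, against 3.86 ± 0.83 and 3.83 ± 0.37 in the PEAR1 line, a difference of -3.18 ± 0.54 (limma adjusted p = 0.0258). JAL22 averaged 5.35 ± 0.27 with DEX+CHX and 7.2 ± 0.26 with DEX in the PEAR2 line, against 5.38 ± 0.32 and 5.55 ± 0.16 in the PEAR1 line (-1.68 ± 0.28, limma adjusted p = 0.0258). In these 3 genes the PEAR2 DEX group is the high one. Only AT2G05510 and PEAR2 kept the call in all alternatives.

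**Figure D5:**
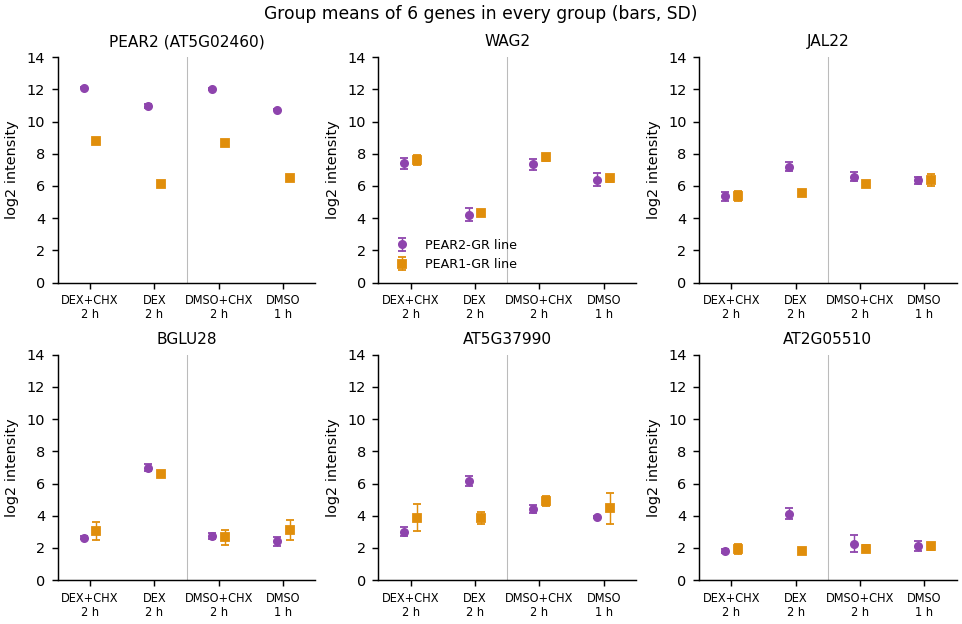
Group means (log2 intensity, bars SD, 3 arrays a group and 4 for PEAR1 DEX+CHX) of 6 genes in both lines, with the grey line between the groups with DEX and those without. JAL22, AT5G37990 and AT2G05510 are highest in PEAR2 DEX, and BGLU28 is high with DEX in both lines; DMSO+CHX lies in another batch and DMSO was sampled at 1 h.

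Without DEX, the change with CHX (DMSO+CHX minus DMSO) in the PEAR2 line had class medians of 3.38 for calmodulin-like proteins, 2.25 for U-box ligases and 2.13 for WRKY factors, beside 3.51, 2.57 and 1.59 with DEX. The medians for chaperones and plastid genes were -0.72 and -0.75 without DEX, beside -0.81 and -0.73 with DEX. Other classes had medians of opposite sign: 0.70 without DEX beside -0.39 with DEX for xyloglucan endotransglucosylases, and 0.17 beside -0.63 for SKP1-like proteins. The xyloglucan median with DEX was -0.09 without PEAR2 DEX+CHX replicate 1 and 0.09 in the PEAR1 line, so its sign is not firm. The comparisons with and without DEX differ in batch and time, so the values stand side by side only. For several genes with a large change the 4 group means of the PEAR2 line were unlike this pattern. BGLU28 averaged 2.64 with DEX+CHX and 6.99 with DEX, beside 2.76 with DMSO+CHX and 2.42 with DMSO. WAG2, a kinase of auxin transport, averaged 7.4 with DEX+CHX and 4.22 with DEX, beside 7.34 with DMSO+CHX and 6.40 with DMSO. OSM34, an osmotin-like protein, averaged 5.65 with DEX+CHX and 7.07 with DEX, beside 7.34 with DMSO+CHX and 6.69 with DMSO.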

How the data were processed

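Total RNA of roots was labelled with biotin and hybridised to 1-colour Affymetrix arrays, per the labels. The authors deposited log2 values made by RMA, per the submitters' processing notes, a method that subtracts background, quantile-normalizes and combines the probes of each row. The sources used here give neither its version nor its options, and no scanner files were used, so a low value is not called absent. The table holds 38408 rows and 25 arrays. In the platform annotation 16746 rows name 1 gene, 758 several and 20904 none. RefSeq's gene table (TAIR10.1) held 16697 of the single-gene rows, and 49 kept the annotation's name, and 14748 genes are known by locus only.

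A limma model (version 3.58.1, R 4.3.3) took all 25 arrays and gave each group its own mean (lmFit and eBayes), and p-values were adjusted by Benjamini-Hochberg over the 17504 rows that name a gene. The 75th percentile shift, a repeated quantile normalization and the other alternatives are given in the closing section. The low range is a group mean of at most 2.3, and a change from or to it is a lower bound. For the 165 genes with several rows the row of highest mean stands for the gene. The number of arrays limits the precision.

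Classes were to be formed from gene descriptions, which the reference table lacks, so they were formed from symbols and synonyms after the annotation was seen. Too few ribosomal protein, initiation factor, NAC, MYB or HSF genes have a named row to form a class. The members and lists were chosen with earlier results of these data known, and classes are described by counts and medians with no test. Named genes are the PEAR2 row, the 15 largest rises and 12 largest falls with groups that do not overlap, at most 3 rises and 3 falls of at least 1 in each class, at most 6 differences between lines in each direction and the markers with a row; others were chosen after their values were seen. They include class members beyond that limit, and genes such as BIK1, LBD16, LBD29, EFR, DLAH, OPCL1, CCR2, HCT, TOPII, WAG2 and OSM34. The script was tested on simulated data. Plots used matplotlib 3.10.9 (Python 3.11.15).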

Additional observations from a re-analysis of the deposited data

Results flagged for a closer look

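The effect of CHX with DEX differed between the lines, by limma's test of the difference, for 7 rows. The change in the PEAR2 line minus that in the PEAR1 line was -3.18 for AT5G37990, -2.43 for AT2G05510, -1.80 for AT1G26790, -1.68 for JAL22, -1.53 for the PEAR2 row (AT5G02460), -1.44 for AT1G23120 and -1.25 for AT5G49525. For the last of these the change was -0.11 in the PEAR2 line and 1.14 in the PEAR1 line, so the difference lies in the PEAR1 line. AT1G26790 and AT1G23120 changed by -1.24 and -1.38 in the PEAR2 line, beside 0.56 and 0.06 in the PEAR1 line. In AT1G26790 one of the 4 PEAR1 DEX+CHX arrays stood apart from the others, at 3.93. Chance flags about 1 in 20 such groups.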

How the results depend on the processing

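PEAR2 DEX+CHX against DEX called 6992 to 8302 rows under the alternatives that kept the same rows, beside 7911, except that testing all 38408 rows gave 17907 (5621 higher, 12286 lower, 8847 of them changed by at least 1, median -0.25). limma's treat against a change of 1 called 1490 rows, beside 2945 with the test against 0 and a change of at least 1. Leaving out 1 array gave 7242 to 7542 calls (3097 to 3202 higher, 4127 to 4387 lower, 2851 to 3121 of at least 1). Class medians above the median of all rows numbered 27, and 25 to 29 with 1 array left out. Genes named by the rule and called numbered 169, and 167 to 168 with 1 array left out.

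The lines differed in 7 rows, in 2 to 18 with 1 array left out, in 3 with only the 13 arrays compared, 4 with batch A451 alone, 36 with a trend and robust prior, and 12 with all rows. The replicate number as a block gave 7811 calls and 17 differences between lines. Same-numbered arrays correlated at 0.08, -0.08 and -0.08 in their deviations, beside -0.13 to 0.19 for arrays of unlike number. These values show no sign of pairing by number, but they are too few to exclude it. Of 824 class medians under an alternative 50 moved by more than the spread between arrays and the median of cytokinin response regulators had no value with the dimmest rows left out. Of 270 named genes 16 lost the call under at least 1 alternative. PYK10 turned to 0.0544 under the repeated quantile normalization, and AUR3 gained a call without PEAR2 DEX+CHX replicate 1 (-0.50). The causes were not tested. Low values limit the size of changes: 4562 rows were in the low range in both groups.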
